A study of Mus musculus with 10 samples.

Results

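Mitochondrial ribosomal proteins are the nucleus-encoded proteins of the ribosome inside mitochondria. Members were taken as the genes whose symbol starts with Mrpl (large subunit) or Mrps (small subunit) followed by a number, with pseudogenes left out. Of 55359 genes in the deposited table, 78 were members, 49 Mrpl and 29 Mrps. The first group was kidney from male mice after 30 min of renal ischaemia and 24 h of reperfusion (ischaemia-reperfusion injury, IRI, 5 libraries), and the second was kidney from mice after sham surgery (Sham, 5 libraries). Strain, age and diet of the mice, whether 1 or both kidneys were made ischaemic, and the interval between sham surgery and sampling, were not given in the sources used here. Whether each library came from its own mouse was not stated either, and the p-values below rest on the variation among libraries, which may be in part technical.

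The mitochondrial ribosome translates the few messenger RNAs encoded by mitochondrial DNA, all of which specify membrane subunits of the respiratory chain and the ATP synthase. Its ribosomal RNAs are made inside the organelle, whereas its proteins are translated in the cytosol and imported. Many of these proteins descend from bacterial ribosomal proteins, and others were added during the evolution of mitochondria. Proximal tubule cells, the bulk of the kidney cortex, are rich in mitochondria and depend on oxidative metabolism.

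Library totals were 13147899 to 18603272 counts, of which 45720 to 71560 per library fell in members. Members held 0.291% to 0.376% of all counts in IRI libraries and 0.340% to 0.431% in Sham libraries. The 14 proximal tubule markers, which include Slc34a1, Lrp2 and Cubn, were all detected in every library, and 14 of 14 were lower in IRI, at a median log2 fold change of -2.75, or -3.31 without library IRI 1. Library IRI 1 stood apart in many of these markers but not in all. Slc34a1 was at 584 FPKM there, against 72.0 to 193 FPKM in the other IRI libraries and 1062 to 1504 FPKM in Sham. Kap was at 6770 FPKM in IRI 1, against 2736 to 10040 FPKM in the other IRI libraries. Slc27a2 was at 245 FPKM in IRI 1, against 69.2 to 253 FPKM. The summed level of the 14 markers was 3180 to 11000 FPKM (fragments per kilobase of exon, scaled by the library total) in IRI and 39700 to 56300 FPKM in Sham. In IRI 1 this sum was 9060 FPKM. Of 9 leukocyte markers tested, 7 were higher and 0 lower in IRI, with summed levels of 107 to 185 FPKM in IRI and 27.9 to 48.0 FPKM in Sham. Ptprc, the general leukocyte marker, missed the filter on low values at 0.530 FPKM in IRI and 0.656 FPKM in Sham. Markers of other kidney cells changed too. Of 3 distal tubule markers 3 were lower, and of 3 podocyte markers 2 were higher and 0 lower. Of 4 thick ascending limb markers 2 were higher and 2 lower, and of 4 collecting duct markers 1 was higher and 1 lower. In these bulk libraries fewer cells of a type and less RNA per cell cannot be told apart, and the part of these shifts in the members' results was not tested. Library IRI 1 also stood apart in the mitochondrial ribosomal RNAs, which took 2.31% of its counts against 0.214% to 0.450% in the other IRI libraries and 0.230% to 0.267% in Sham.

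Messenger RNAs of most mitochondrial ribosomal proteins were lower in IRI kidneys. Of 77 members tested, 61 fell and 6 rose at an adjusted p under 0.05 (edgeR quasi-likelihood test with TMM factors and Benjamini-Hochberg adjustment over all 13324 genes tested), and 10 were not called. TMM (trimmed mean of M-values) factors correct library totals for differences in composition between libraries. Over all genes tested, 32.4% fell and 34.5% rose. The median log2 fold change was -0.46 over members and 0.05 over all genes. Most falls were small, since 7 members fell and 2 rose at least 2-fold, beside 15.0% lower and 11.9% higher of all genes at that size. In FPKM, 18 members had every IRI library below every Sham library and 7 had every IRI library above, beside 18.6% and 36.7% of all genes. Without library IRI 1, 57 members fell and 6 rose.

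The count of falls depended on the scaling. FPKM is scaled by library totals, whereas the fold changes are scaled by TMM factors, and the change of scaling shifted the log2 fold changes of all genes by a median of 0.25. With library totals in place of TMM factors, 30 members fell and 9 rose, beside 23.6% lower and 47.4% higher of all genes. Their median was then -0.21 beside 0.30 for all genes. Of the 61 falls, 30 were called under library totals, and of the 6 rises 6 were called, with 0 called in the other direction. The median of the members was below the median of all genes under both scalings. The scalings differ by nearly the same shift for every gene, so this gap was bound to persist and adds no support. The shift was upward, so no rise could turn into a fall.

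**Figure D1:**
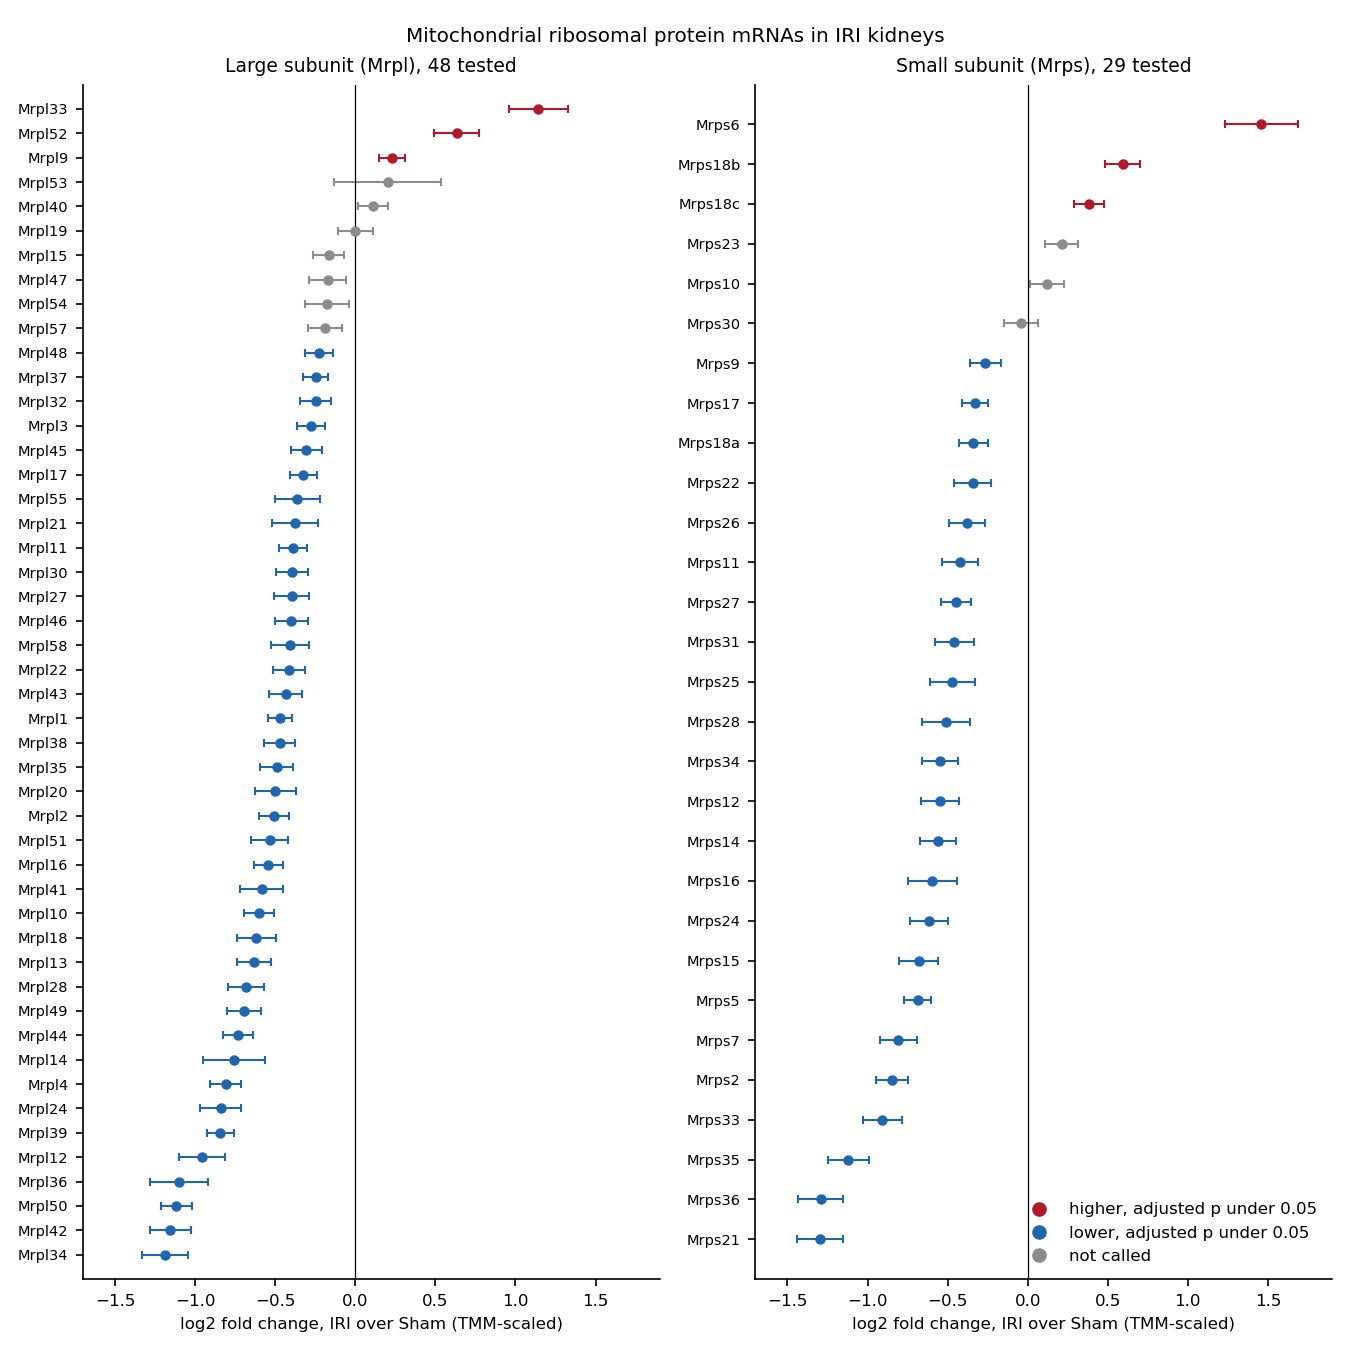
Log2 fold change (IRI over Sham, TMM-scaled) with its standard error for the 77 tested members, large subunit on the left and small subunit on the right. Rises called at an adjusted p under 0.05 (red) were led by Mrps6 and Mrpl33, falls (blue) by Mrps21 and Mrps36, and 10 members were not called (grey).

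Mrps6 had the largest rise. Its product is a protein of the small subunit platform with a bacterial counterpart. The gene (ENSMUSG00000039680) lies on chromosome 16 at 91855158 to 91909115, plus strand, GRCm39. Mrps6 had 88.6, 165, 97.3, 181 and 104 FPKM in the IRI libraries 1 to 5, against 30.5, 25.8, 42.7, 45.3 and 49.1 FPKM in the Sham libraries 1 to 5. Every IRI library was above every Sham library, with IRI 2 and IRI 4 well above the other IRI libraries. The log2 fold change was 1.46 with a standard error of 0.23 (edgeR adjusted p = 0.000121), a 2.75-fold rise. Ranked by mean FPKM among the 78 members, Mrps6 was at place 1 in IRI and place 15 in Sham.

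The Mrps6 locus also holds Slc5a3, which encodes a sodium-coupled myo-inositol transporter. In the deposited coordinates (GRCm39) Slc5a3 starts at 91855210 on the same strand, within the span of Mrps6. By the GENCODE vM21 exon models, 159 exonic bases were shared, or 10.4% of the exonic length of Mrps6. Slc5a3 had 41.2, 69.7, 48.8, 119 and 64.4 FPKM in the IRI libraries, against 13.7, 6.86, 25.6, 20.7 and 15.8 FPKM in the Sham libraries. Its groups did not overlap either, and its log2 fold change was 1.80 (edgeR adjusted p = 0.000504). How reads in the shared bases were assigned was not given in the sources used here.

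Mrpl33, a small protein of the large subunit with a bacterial counterpart, was the only other member with a rise of at least 2-fold. Mrpl33 had 6.88, 10.4, 14.3, 11.2 and 9.65 FPKM in the IRI libraries, against 3.84, 3.76, 2.88, 4.06 and 5.27 FPKM in the Sham libraries. All IRI values exceeded all Sham values, and IRI 1 was the lowest IRI library. Mrpl33 rose by 1.14 on the log2 scale with a standard error of 0.18 (edgeR adjusted p = 0.000149). Mrpl33 moved to place 53 of the members in IRI, against place 75 in Sham.

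Mrpl52 is a large subunit protein found in mitochondrial and not in bacterial ribosomes. Mrpl52 had 37.4, 49.2, 44.2, 45.2 and 45.2 FPKM in the IRI libraries, against 20.03, 20.8, 20.6, 24.2 and 33.9 FPKM in the Sham libraries. The groups did not overlap, and Sham 5 was the highest Sham library. Its log2 fold change was 0.63 with a standard error of 0.14 (edgeR adjusted p = 0.00159). Mrpl9, a large subunit protein with a bacterial counterpart, had the smallest rise that was called. Mrpl9 had 26.6, 30.3, 23.6, 27.6 and 27.5 FPKM in the IRI libraries, against 19.1, 19.0, 21.0, 19.3 and 19.1 FPKM in the Sham libraries. Its log2 fold change was 0.23 with a standard error of 0.08 (edgeR adjusted p = 0.0232). That call was lost without library IRI 1 (log2 fold change 0.20), without library IRI 2 (0.19), with no filter on low values (adjusted p = 0.0516), with a replicate block (adjusted p = 0.0775) and at an adjusted p under 0.01.

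The 3 Mrps18 paralogs did not change alike. Mammals have 3 proteins related to bacterial ribosomal protein S18, of which Mrps18b and Mrps18c sit in the small subunit and Mrps18a, despite its name, in the large subunit. Mrps18b had 16.7, 18.4, 21.3, 14.7 and 18.7 FPKM in the IRI libraries, against 10.9, 8.62, 10.8, 9.54 and 10.1 FPKM in the Sham libraries. Mrps18c had 38.9, 46.2, 42.9, 41.5 and 42.6 FPKM in the IRI libraries, against 28.0, 27.7, 22.5, 27.2 and 31.0 FPKM in the Sham libraries. In neither gene did the groups overlap. Mrps18b rose by a log2 fold change of 0.59 with a standard error of 0.11 (edgeR adjusted p = 0.000455). Mrps18c rose by a log2 fold change of 0.38 with a standard error of 0.09 (edgeR adjusted p = 0.00338).

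Mrps18a was lower after TMM scaling but overlapped between groups in FPKM. Mrps18a had 11.1, 14.2, 15.2, 15.4 and 14.4 FPKM in the IRI libraries, against 13.6, 15.4, 13.9, 16.6 and 14.8 FPKM in the Sham libraries. The log2 fold change was -0.34 with a standard error of 0.09 (edgeR adjusted p = 0.00532), and under library totals it was -0.08 (adjusted p = 0.486). The ratio of Mrps18b to Mrps18a within a library, which no scaling factor touches, was 1.29 ± 0.207 in IRI and 0.679 ± 0.113 in Sham (SD, n = 5 each), with 0.955 as the lowest IRI and 0.808 as the highest Sham ratio. The ratio of Mrps18c to Mrps18a was 2.70 to 3.50 in IRI and 1.61 to 2.10 in Sham. Both ratios separated the groups. The ratio of Mrps18b to Mrps18c was 0.354 to 0.496 in IRI and 0.311 to 0.480 in Sham, so the groups overlapped. These ratios were formed after the values had been seen and are given without a test.

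**Figure D2:**
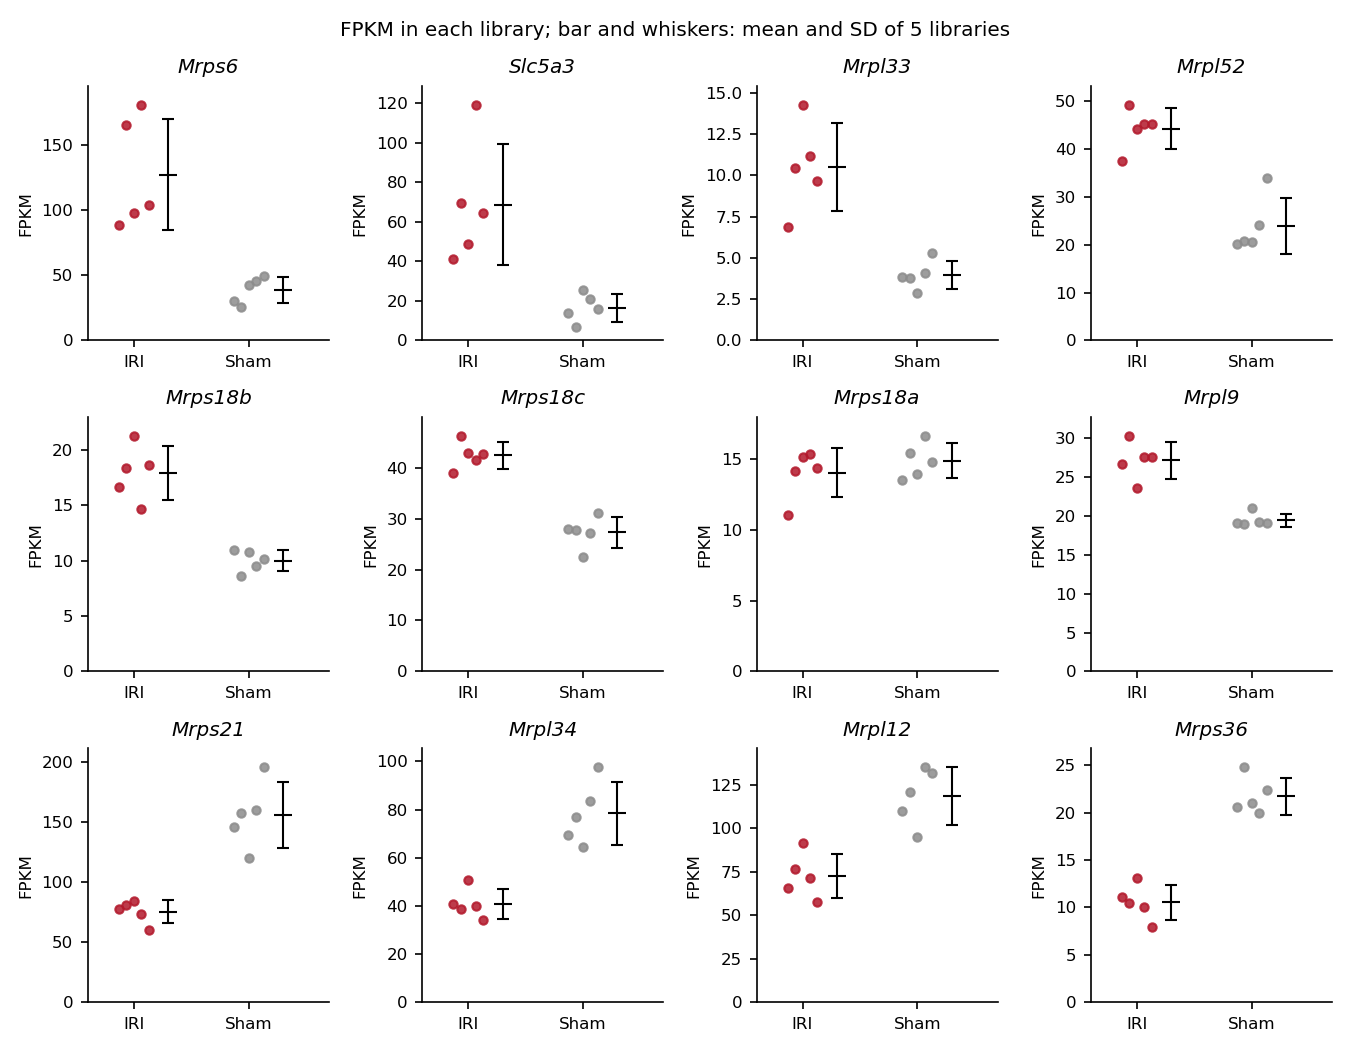
FPKM in each of 5 IRI and 5 Sham libraries for 11 members and for Slc5a3, with the mean and SD at the right of each group and the axis from 0. Mrps6, Mrpl33, Mrpl52, Mrps18b, Mrps18c and Mrpl9 were higher in every IRI library than in any Sham library, Mrps21, Mrpl34, Mrpl12 and Mrps36 were lower in every IRI library, and Mrps18a overlapped.

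The largest fall was in Mrps21, the member with the highest mean FPKM in Sham. Its product is a small subunit protein with a bacterial counterpart. The gene (ENSMUSG00000054312) lies on chromosome 3 at 95769946 to 95778831, minus strand, GRCm39. Mrps21 had 78.0, 81.0, 84.1, 73.8 and 60.2 FPKM in the IRI libraries, against 146, 158, 120.1, 160 and 196 FPKM in the Sham libraries. The groups lay far apart, with the highest IRI library below the lowest Sham library. Its log2 fold change was -1.30 with a standard error of 0.14 (edgeR adjusted p = 8.76e-06).

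Mrps36 carries a small subunit name, but its product is a subunit of the 2-oxoglutarate dehydrogenase complex of the citric acid cycle and is not part of the assembled ribosome. Mrps36 had 11.1, 10.4, 13.1, 10.0 and 7.93 FPKM in the IRI libraries, against 20.6, 24.8, 20.9, 19.9 and 22.3 FPKM in the Sham libraries. The groups did not overlap. The log2 fold change was -1.29 with a standard error of 0.14 (edgeR adjusted p = 8.72e-06). Mrps36 has near-identical pseudogene copies that could share its reads. Among the pseudogene rows left out, Mrps36-ps1 (log2 fold change -1.35, edgeR adjusted p = 0.00656) and Mrps36-ps2 (-1.61, adjusted p = 0.000608) also fell, at a mean of 1.86 and 0.938 FPKM in IRI against 4.06 and 2.42 FPKM in Sham.

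In the large subunit the largest fall was in Mrpl34, a protein with a bacterial counterpart. Mrpl34 had 40.9, 38.6, 50.8, 40.1 and 34.1 FPKM in the IRI libraries, against 69.5, 77.0, 64.3, 83.6 and 97.7 FPKM in the Sham libraries. Its log2 fold change was -1.19 with a standard error of 0.14 (edgeR adjusted p = 1.6e-05). Mrpl42 and Mrpl50, proteins with no bacterial counterpart, followed with log2 fold changes of -1.16 and -1.12. Mrpl42 averaged 13.7 ± 2.42 FPKM in IRI and 25.6 ± 3.89 FPKM in Sham, and Mrpl50 averaged 25.9 ± 3.33 FPKM in IRI and 47.2 ± 1.74 FPKM in Sham (SD, n = 5 each). Neither gene overlapped between the groups.

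Mrpl36, whose product has a bacterial counterpart, had 15.7, 15.6, 28.1, 16.6 and 16.3 FPKM in the IRI libraries, against 30.3, 29.4, 28.0, 37.9 and 41.0 FPKM in the Sham libraries. IRI 3 lay at the level of the lowest Sham library, whereas the other IRI libraries were well below. The log2 fold change was -1.10 with a standard error of 0.18 (edgeR adjusted p = 0.000189), and without IRI 3 it was the lowest of the leave-one-out fits at -1.30. In the small subunit Mrps35, a protein with no bacterial counterpart, averaged 4.08 ± 0.744 FPKM in IRI and 7.45 ± 0.560 FPKM in Sham (SD, n = 5 each), with a log2 fold change of -1.12 (edgeR adjusted p = 1.23e-05).

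All 3 stalk proteins were lower. The stalk of the large subunit recruits the translation factors, and in it Mrpl10 anchors copies of Mrpl12 beside Mrpl11. Mrpl12, which is also known to bind the mitochondrial RNA polymerase, had 65.9, 76.6, 91.9, 71.5 and 57.7 FPKM in the IRI libraries, against 110.2, 121, 95.1, 135 and 132 FPKM in the Sham libraries. Only IRI 3 came close to the lowest Sham library. The log2 fold changes were -0.96 for Mrpl12 (edgeR adjusted p = 8.48e-05), -0.60 for Mrpl10 (adjusted p = 0.000124) and -0.39 for Mrpl11 (adjusted p = 0.00164). Under library totals the Mrpl11 fall was not called (log2 fold change -0.13, adjusted p = 0.231).

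Other members with a known special role were also lower after TMM scaling. Mrps12, the protein of the decoding centre related to bacterial S12, averaged 23.1 ± 2.89 FPKM in IRI and 28.3 ± 4.07 FPKM in Sham, with a log2 fold change of -0.55 (edgeR adjusted p = 0.00124). Mrpl18, whose messenger RNA is known to yield a cytosolic form during heat shock, averaged 40.9 ± 7.09 FPKM in IRI and 52.7 ± 5.41 FPKM in Sham, with a log2 fold change of -0.62 (adjusted p = 0.000677). Mrpl58, a peptidyl-tRNA hydrolase that releases stalled chains, averaged 14.3 ± 2.18 FPKM in IRI and 15.9 ± 2.53 FPKM in Sham, with a log2 fold change of -0.41 (adjusted p = 0.00999). Mrpl45, which attaches the ribosome to the inner membrane, averaged 17.6 ± 2.37 FPKM in IRI and 18.2 ± 1.37 FPKM in Sham, with a log2 fold change of -0.31 (adjusted p = 0.014). Errors are SD of 5 libraries per group. The IRI and Sham libraries of all 4 genes overlapped in FPKM. Under library totals Mrpl18 was still called (adjusted p = 0.0154), and Mrps12 (0.052), Mrpl58 (0.325) and Mrpl45 (0.687) were not.

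Of the 10 members not called, 5 had log2 fold changes above 0 and 5 below. Mrpl19, a large subunit protein with a bacterial counterpart, was nearest 0, at 4.27 ± 0.692 FPKM in IRI and 3.57 ± 0.328 FPKM in Sham (SD, n = 5 each) and a log2 fold change of 0.00 (edgeR adjusted p = 0.993). Mrps30, which despite its name sits in the large subunit, averaged 4.71 ± 0.476 FPKM in IRI and 4.07 ± 0.438 FPKM in Sham, with a log2 fold change of -0.04 (adjusted p = 0.731). Mrps10, a protein of the small subunit head, averaged 5.28 ± 0.621 FPKM in IRI and 4.08 ± 0.525 FPKM in Sham, with a log2 fold change of 0.12 (adjusted p = 0.33). Mrpl54, which ranked at place 4 by mean FPKM in both groups, averaged 57.9 ± 5.11 FPKM in IRI and 55.0 ± 11.9 FPKM in Sham, with a log2 fold change of -0.18 (adjusted p = 0.262).

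Mrpl40, a large subunit protein with no bacterial counterpart, depended on the scaling. Mrpl40 had 16.9, 17.8, 21.1, 18.8 and 16.9 FPKM in the IRI libraries, against 15.3, 12.4, 14.8, 13.2 and 15.6 FPKM in the Sham libraries, with no overlap. After TMM scaling its log2 fold change was 0.11 (edgeR adjusted p = 0.325), and under library totals it was 0.36 (adjusted p = 0.00645). Mrps10 (adjusted p = 0.00994) and Mrps23 (adjusted p = 0.00318) were likewise called higher under library totals. Mrpl53, at the low level of 1.88 ± 0.702 FPKM in IRI and 1.36 ± 0.416 FPKM in Sham, had the widest standard error, 0.34 around a log2 fold change of 0.20. By the GENCODE vM21 exon models it shares 88.0% of its exonic bases with Gm42688 on the same strand, which limits these values.

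Mrpl23, whose product lies at the exit of the peptide tunnel, missed the filter of 1 FPKM in at least 5 libraries. Mrpl23 averaged 0.568 ± 0.128 FPKM in IRI and 0.498 ± 0.159 FPKM in Sham. Fitted with no filter on low values, its log2 fold change was -0.03 (edgeR adjusted p = 0.932). The pseudogene row Mrpl23-ps1 had 2.16 ± 0.575 FPKM in IRI and 2.79 ± 0.899 FPKM in Sham (SD, n = 5 each). How reads were split between the gene and its copy was not given in the sources used here.

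The subunits moved by similar amounts. Among large subunit names 38 of 48 fell and 3 rose (median log2 fold change -0.42), and among small subunit names 23 of 29 fell and 3 rose, with a median of -0.47. Under library totals 19 fell and 4 rose in the large subunit (median -0.17), and 11 fell and 5 rose in the small subunit (median -0.21). When members were placed by their position in the mammalian ribosome, with Mrps30 and Mrps18a in the large subunit and Mrps36 in neither, 39 of 50 fell in the large subunit (median -0.41) and 21 of 26 in the small subunit (median -0.49). The difference between the subunits was not tested.

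Falls were found among both old and newer proteins of the ribosome. Of 47 tested members with a bacterial counterpart, 38 fell and 5 rose (median -0.49). Of 29 found only in mitochondrial ribosomes, 22 fell and 1 rose (median -0.43). Under library totals 20 fell and 6 rose among those with a bacterial counterpart (median -0.23), and 9 fell and 3 rose among those found only in mitochondria (median -0.18). By region after TMM scaling, 3 of 3 members at the decoding centre and mRNA entry fell (median -0.61). At the peptide exit tunnel 4 of 5 fell, and in the small subunit head 3 of 4 fell. The small subunit platform held both directions, since Mrps6 and Mrps18c rose and the other 3 of its 5 members fell. Fewer members of each region fell under library totals. There 2 of 3 fell at the decoding centre and mRNA entry, 1 of 5 at the exit tunnel (median -0.07), 2 of 4 in the head, where 1 rose, and 2 of 5 in the platform, where 2 rose.

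The summed FPKM of the large subunit members was 906 to 1200 in IRI and 1120 to 1470 in Sham. That of the small subunit members was 526 to 669 in IRI and 570 to 761 in Sham, and the groups overlapped in both sums. The ratio of small to large subunit sums was 0.590 ± 0.0446 in IRI and 0.512 ± 0.00669 in Sham (SD, n = 5 each), with no overlap. With Mrps6 left out of the small subunit the ratio was 0.466 ± 0.0144 in IRI and 0.482 ± 0.00563 in Sham, and the groups overlapped. Mrps6 made up 5.31% to 10.7% of the members' FPKM in IRI and 1.40% to 2.53% in Sham. These sums and ratios are given without a test.

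In every IRI library most members were below their mean in Sham. Between 65 and 69 of the 77 members lay below the Sham mean in an IRI library, whereas in the Sham libraries the number ran between 10 (Sham 5) and 70 (Sham 3). The median deviation of the members, on the log2 CPM scale after TMM scaling, was -0.526 to -0.252 in the IRI libraries and -0.185 to 0.185 in the Sham libraries. IRI 3 was the least lowered IRI library and Sham 3 the lowest Sham library, and the groups did not overlap. Under library totals the median deviation was -0.381 to 0.003 in IRI and -0.149 to 0.191 in Sham, so that IRI 3 lay within the Sham range.

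**Figure D3:**
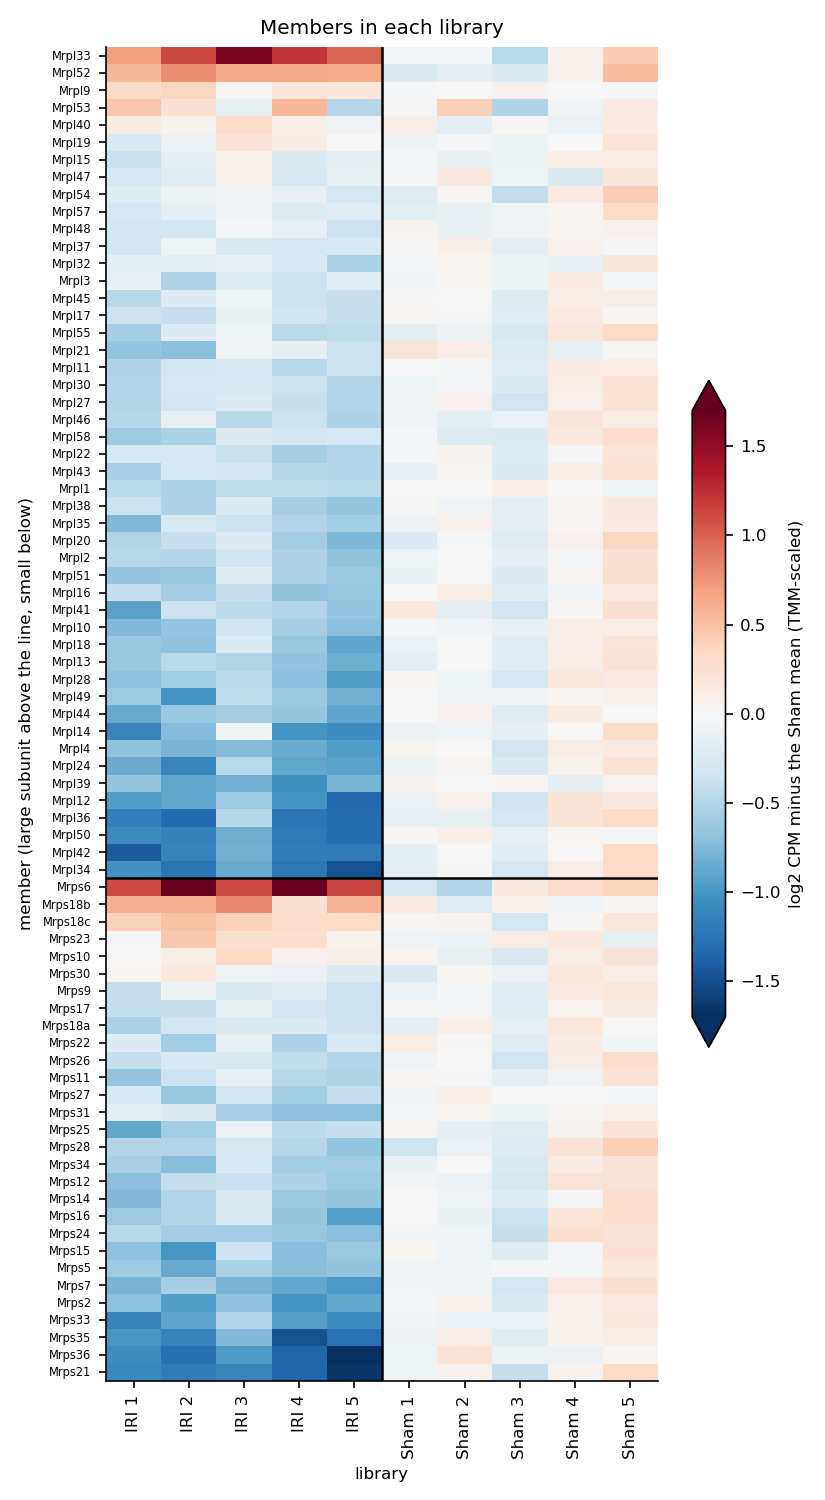
Deviation of each of the 77 tested members from its Sham mean (log2 CPM, TMM-scaled) in each library, IRI on the left and Sham on the right, large subunit above the line and small subunit below. Blue prevails in all 5 IRI libraries, with the palest column in IRI 3, and the Sham libraries differ among themselves as a whole, with Sham 3 bluest and Sham 5 reddest.

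Genes around the ribosome were called lower more often than higher. Among all genes tested, 32.4% were called lower and 34.5% higher, and under library totals 23.6% lower and 47.4% higher. The 5 ribosome proteins with other names (Dap3, Ptcd3, Aurkaip1, Chchd1 and Gadd45gip1) included 4 falls and 0 rises (median -0.49), and 2 falls and 0 rises under library totals. Of 26 tested genes for ribosome assembly and ribosomal RNA modification, 16 fell and 1 rose (median -0.44), and under library totals 9 fell and 4 rose (median -0.18). Rmnd1, an inner membrane protein needed for mitochondrial translation, averaged 3.40 ± 0.433 FPKM in IRI and 10.4 ± 1.35 FPKM in Sham (SD, n = 5 each), with a log2 fold change of -1.86 (edgeR adjusted p = 4.03e-07). Tfb1m, which dimethylates the small ribosomal RNA, fell by 1.41 on the log2 scale, Mettl15, another methyltransferase of that RNA, by 1.29, and Mtg2, a GTPase of large subunit assembly, by 1.17. Rcc1l was the assembly gene that rose after TMM scaling, with a log2 fold change of 0.33 (edgeR adjusted p = 0.0108).

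Among mitochondrial translation factors 13 of 15 fell and 1 rose, and their median log2 fold change of -0.75 was lower than that of the ribosomal proteins. The difference from the ribosomal proteins was not tested. Under library totals 11 translation factors fell and 1 rose (median -0.51). Tufm, the elongation factor that brings aminoacyl-tRNA to the ribosome, averaged 16.8 ± 2.98 FPKM in IRI and 38.3 ± 3.16 FPKM in Sham (SD, n = 5 each), with a log2 fold change of -1.44 (edgeR adjusted p = 2.68e-06). Gfm2, a factor of ribosome recycling, had a log2 fold change of -1.66 (adjusted p = 2.45e-07), Hemk1, which methylates release factors, -1.69 (adjusted p = 8.32e-07), and Mtif3, an initiation factor, -1.06 (adjusted p = 1.42e-06). Mss51, known in yeast as a translational activator of Cox1, rose by a log2 fold change of 1.80 (adjusted p = 0.000211) at 2.94 ± 0.792 FPKM in IRI and 0.714 ± 0.359 FPKM in Sham. Of 20 tested genes for mitochondrial transcription, replication and RNA handling, 11 fell and 1 rose (median -0.40), and under library totals 7 fell and 5 rose (median -0.15). The falls were led by Hsd17b10, a subunit of the mitochondrial RNase P (log2 fold change -0.83), the elongation factor Tefm (-0.82), Fastkd1 (-0.80) and the RNA-binding Lrpprc (-0.77), and Polg, the mitochondrial DNA polymerase, was the gene that rose after TMM scaling (0.19, edgeR adjusted p = 0.0479). Without library IRI 1 that call was lost (0.16, adjusted p = 0.104).

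The products and partners of mitochondrial translation were set beside the members. Of 81 tested nuclear genes for subunits of the respiratory chain and ATP synthase, 75 fell and 0 rose (median -0.88), and under library totals 72 fell and 1 rose. Of the 13 mitochondrially encoded messenger RNAs, 7 fell and 0 rose (median -0.48), beside 32.4% lower and 34.5% higher of all genes tested. Under library totals 1 of the 13 fell, or 7.69%, beside 23.6% lower of all genes. The levels of these 13 messenger RNAs were uneven. Group means of mt-Co2, mt-Atp8, mt-Atp6, mt-Co3, mt-Nd3 and mt-Nd4l were 5.24 to 182 FPKM, against 4040 to 24100 FPKM for the others. The called falls of mt-Co2, mt-Atp6, mt-Co3 and mt-Nd3 rest on these much lower values, and the cause of the gap was not tested. The mitochondrial ribosomal RNAs mt-Rnr1 and mt-Rnr2 had log2 fold changes of 1.53 (edgeR adjusted p = 0.0585) and 1.27 (adjusted p = 0.0583), and without library IRI 1 these were 0.04 and 0.21. Since the libraries were made from poly(A) RNA, the level of these ribosomal RNAs is not a measure of ribosomes. Cytosolic ribosomal proteins went the other way, with 47 of 85 higher, 3 lower and a median of 0.36, and under library totals 74 were higher and 1 lower. Cytosolic ribosomal protein genes have many near-identical pseudogenes, so their single values are uncertain.

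**Figure D4:**
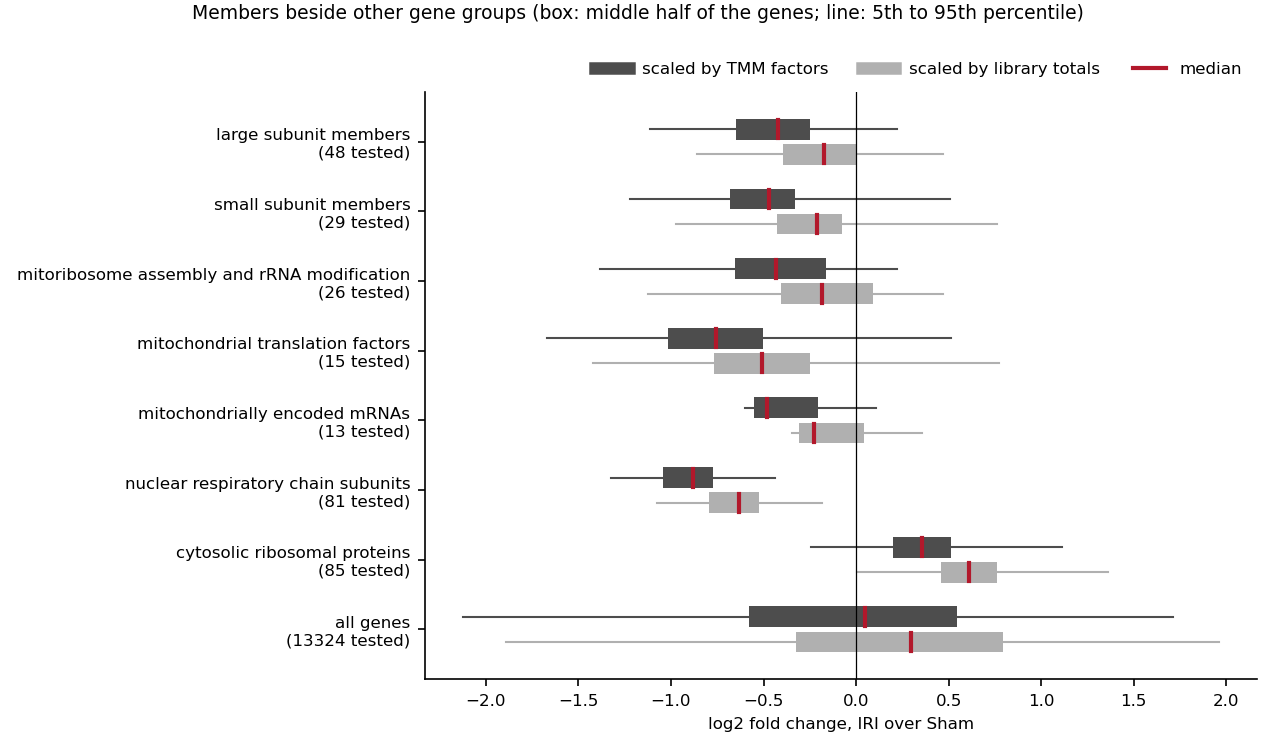
Log2 fold changes (IRI over Sham) of the members by subunit and of 5 other gene groups and all genes tested, scaled by TMM factors (dark) or library totals (pale), with the median in red. Ribosomal protein medians of -0.42 and -0.47 lay between that of nuclear respiratory chain subunits (-0.88) and that of all genes (0.05), and cytosolic ribosomal proteins lay above all genes at 0.36.

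Calls among regulators of mitochondrial biogenesis depended on the scaling. Of 10 such genes 4 rose and 2 fell after TMM scaling, with a median log2 fold change of 0.22 (0.09 without library IRI 1). Over all genes tested, 34.5% rose and 32.4% fell. Under library totals 7 of the 10 rose and 1 fell, with a median of 0.46, beside 47.4% higher and 23.6% lower of all genes. Myc, whose product binds the E-box, averaged 21.7 ± 4.72 FPKM in IRI and 1.76 ± 0.490 FPKM in Sham (SD, n = 5 each), with a log2 fold change of 3.39 (edgeR adjusted p = 2.14e-07). Pprc1, a coactivator of the PGC-1 family, rose by 1.60 on the log2 scale, Gabpb1, a subunit of the ETS factor GABP, by 0.82, and Nrf1, nuclear respiratory factor 1, by 0.41. Esrra, an orphan nuclear receptor, had a log2 fold change of -0.94 (adjusted p = 1.8e-05) and Ppargc1a, the coactivator PGC-1alpha, of -0.34 (adjusted p = 0.0136). The remaining 4 genes, Gabpa, Yy1, Sirt1 and Ppargc1b, were not called. Under library totals the Ppargc1a fall was lost (-0.08, adjusted p = 0.571), and Gabpa (adjusted p = 0.015), Yy1 (0.00198) and Sirt1 (0.00758) were called higher.

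Promoters of the members were searched for 4 short sequences, the motifs of NRF1, ETS factors and YY1 and the E-box. No motif of Esrra, the regulator with the largest fall, was searched. RefSeq promoter windows of 300 bases (build GRCm38.p6) were found for 69 of the 78 members, 75 windows in all, and both strands were searched. The NRF1 motif, GCGCA and GCGC separated by any base, was in 17.3% of the members' windows, 9.56% of the windows of tested genes and 4.60% of all 32851 windows. The ETS motif CCGGAAGT was in 16.0%, 7.90% and 3.89% of these windows. The YY1 motif AAGATGGC was in 16.0%, 4.41% and 2.75%, and the E-box CACGTG in 9.33%, 9.98% and 7.15%. The shares of the NRF1, ETS and YY1 motifs were thus higher among members than among tested genes, and that of the E-box was not, and these shares are given without a test. None of the 4 motifs overlaps another by its letters in the stretches shown.

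For each motif found before the start, the member with the largest fall and the member with the largest rise are shown where the match lies within 120 bases of the start, with Mrps6 for its rise. Each stretch is the 120 bases before the RefSeq start, 5' to 3' on the strand of the gene, from RefSeq, GRCm38.p6. Capitals mark the motif matches.
Mrps6 (chr16:92058216-92058335, plus strand): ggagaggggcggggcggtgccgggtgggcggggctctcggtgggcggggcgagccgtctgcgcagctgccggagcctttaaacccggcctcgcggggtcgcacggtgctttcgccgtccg
Mrpl9 (chr3:94443216-94443335, plus strand): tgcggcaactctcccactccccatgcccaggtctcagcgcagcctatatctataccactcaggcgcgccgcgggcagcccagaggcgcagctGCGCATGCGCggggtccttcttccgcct
Mrps21 (chr3:95871515-95871634, minus strand): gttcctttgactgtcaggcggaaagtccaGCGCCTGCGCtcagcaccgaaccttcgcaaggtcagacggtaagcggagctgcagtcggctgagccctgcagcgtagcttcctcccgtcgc
Mrpl51 (chr6:125192080-125192199, plus strand): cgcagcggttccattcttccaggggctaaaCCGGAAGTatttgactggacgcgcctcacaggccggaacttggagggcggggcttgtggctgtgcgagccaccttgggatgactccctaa
Mrpl36 (chr13:73330889-73331008, plus strand): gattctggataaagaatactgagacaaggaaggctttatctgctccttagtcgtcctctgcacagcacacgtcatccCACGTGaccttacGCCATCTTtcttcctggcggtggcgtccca
Mrps21, with the largest fall, and Mrpl9, with a small rise, both hold an NRF1 match. Mrpl51, which fell by 0.54 on the log2 scale, holds an ETS match. In the full windows 12 members held an ETS match. Of these, Mrps18c, Mrpl52 and Mrpl33 rose and the others fell. Mrpl36 holds an E-box and, on the other strand, a YY1 match. In Mrps6 no match to the 4 motifs was in the stretch shown. A match describes these letters and not a bound site.

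Many members share their promoter region with a neighbour on the other strand. A divergent neighbour, whose start lay up to 1000 bases upstream or 500 bases downstream of the member's start on the opposite strand by the deposited coordinates (GRCm39), was tested for 27 of 77 members (35.1%) and for 13.4% of all genes tested. Of the 22 such members that fell, the neighbour fell in 9 pairs, rose in 2 and was not called in 11, beside 32.4% lower and 34.5% higher of all genes tested. Whether members and their neighbours changed together more often than other genes was not tested. Mrpl36 (-1.10) and Ndufs6 (-1.14), a subunit of respiratory complex I, fell together on the log2 scale with starts 29 bases apart. Mrps11 (-0.42) and Mrpl46 (-0.40), divergent members of different subunits, also fell together and count as a pair from each side. Mrpl13 fell (-0.63) and its neighbour Mtbp rose (0.85), and Mrpl30 fell (-0.40) and Mitd1 rose (0.45). Mrps18c (0.38) rose with the DNA helicase gene Helq (0.32), and Mrps18b (0.59) rose while Ppp1r10 had a log2 fold change of 0.04 (edgeR adjusted p = 0.904).

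**Figure D5:**
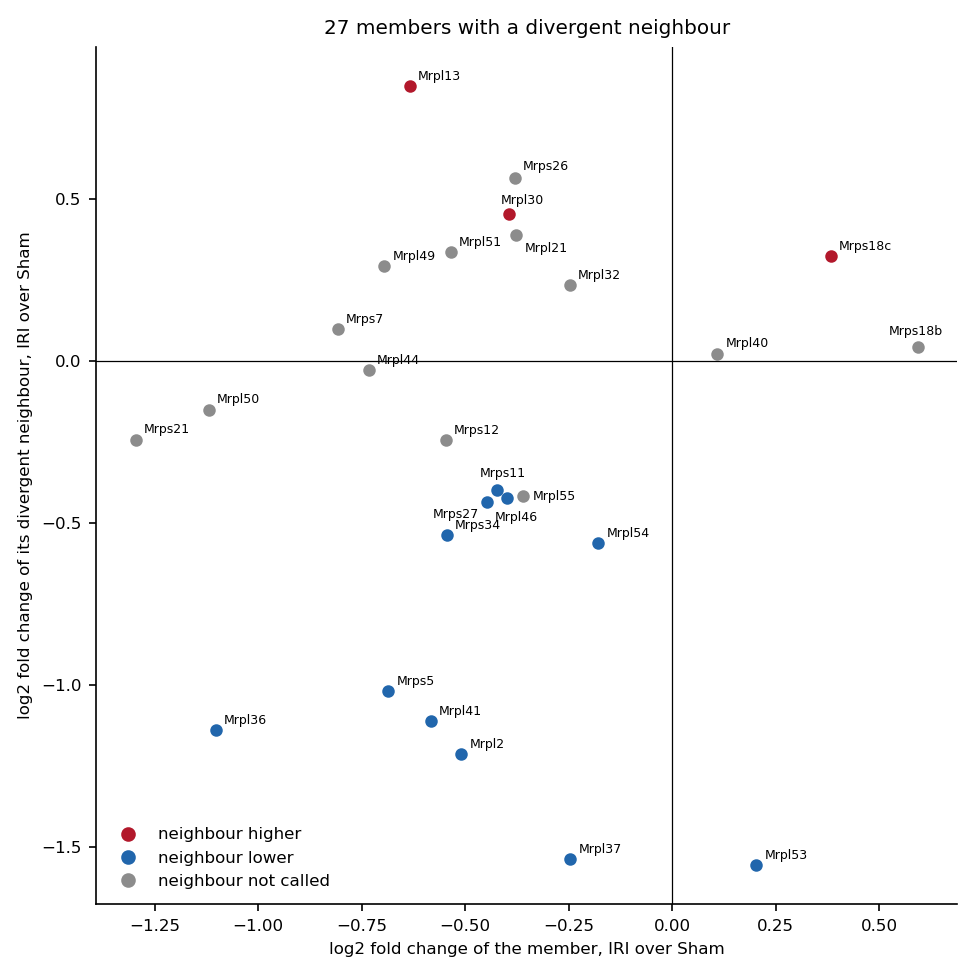
Log2 fold change (IRI over Sham) of 27 members on the horizontal axis against that of the divergent neighbour on the vertical axis, each point labelled with the member and coloured by the neighbour's call. Most members lie left of 0, whereas the neighbours spread on both sides of 0, with Mtbp beside Mrpl13 highest at 0.85 and the neighbour of Mrpl53 lowest at -1.56.

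Some members share exons with other genes, which limits their single values. By the GENCODE vM21 exon models (GRCm38), whose exonic lengths equalled the deposited lengths for 78 of 78 members, 33 members shared exonic bases with another gene and 7 shared over 25% of them. The largest shares were in Mrpl53 (88.0%, with Gm42688), Mrps25 (69.8%, with Nr2c2) and Mrps34 (63.4%, with Mapk8ip3). Mrps18b shared 30.5% with Gm16279 on the opposite strand, which averaged 1.71 FPKM in IRI and 1.42 FPKM in Sham. The strand setting of the counting is not known, and reads of such opposite-strand pairs may have been counted for either gene. For pairs on the same strand, such as Mrpl53 and Gm42688, how reads in the shared bases were assigned was not given either.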

How the data were processed

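Poly(A) RNA of 10 mouse kidney libraries was sequenced as paired reads of 150 bases, per the labels' protocols. The authors deposited a table of whole-number counts per gene and of FPKM per gene. The submitters' processing notes name the build GRCm39 and the tools HTSeq 0.6.1, HISAT2 2.0.1 and cutadapt 1.9.1, with no roles or settings. FPKM computed from the deposited counts, exonic lengths and library totals matched the deposited FPKM to 0.005. Symbols were matched by Ensembl identifier for 52083 of 55359 genes.

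Genes with at least 1 FPKM in at least 5 libraries (13324) were tested on the deposited counts in R 4.3.3 with the quasi-likelihood F test of edgeR 4.0.16, TMM factors, group as the only term and Benjamini-Hochberg adjustment over all of them. Standard errors were taken from the log2 fold change and the F statistic. Alternatives were library totals, DESeq2 1.42.0, limma 3.58.1 on log2(FPKM + 1) and log2(FPKM + 0.1), no filter, a replicate block, removal of mitochondrially encoded genes, an adjusted p under 0.01 and leaving out each library. The fit was tested on data simulated with the means and spread of the Sham libraries. It recovered 64% of the genes changed 1.5-fold and 96% of those changed 2-fold. Far fewer genes were changed there than were called here, low genes were not among them, and both groups had the Sham spread. The shares recovered may thus differ in the real libraries. An uncalled member is thus not shown to be unchanged. FPKM errors are SD, and the number of counts limits the precision of low genes.

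Members and lists were chosen with earlier results of these data known. Named members were the 8 largest called changes in each direction (6 rises were called), the 4 uncalled nearest 0, the 4 highest and 3 lowest in Sham and a set with known roles. From other lists, up to 4 called genes of largest change were named, and a lone gene in the other direction, chosen after its value was seen, as were names beyond this rule. Tubule, podocyte and leukocyte markers, Nrf1, Ppargc1a, the uncalled regulators, genes of turned sign, Mrps23, divergent neighbours, exon overlaps, subunit sums and paralog ratios were also chosen after values were seen.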

Additional observations from a re-analysis of the deposited data

Results flagged for a closer look

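In 7 of 60 groups of 5 libraries examined, the highest or the lowest library lay far from the others by Dixon's gap ratio at its 95% critical value of 0.710, which chance gives in about 1 of 20 groups. In IRI, Mrpl36 had 28.1 FPKM in IRI 3 against 15.6 to 16.6 in the other IRI libraries, and Mrpl50 had 31.7 FPKM in IRI 3 against 23.4 to 25.4. Mrps18a had 11.1 FPKM in IRI 1 against 14.2 to 15.4 in the other IRI libraries. The mitochondrial ribosomal RNAs took 2.31% of the counts in IRI 1 against 0.214% to 0.450% in the other IRI libraries. In Sham, Mrpl9 had 21.0 FPKM in Sham 3 against 19.0 to 19.3 in the other Sham libraries. In Sham 5, Mrpl42 had 32.3 FPKM against 22.8 to 25.1 in the other Sham libraries, and Mrpl19 had 4.15 FPKM against 3.35 to 3.50.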

How the results depend on the processing

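The scaling moved the counts of calls most. Under library totals, limma on log2(FPKM + 1) and limma on log2(FPKM + 0.1), which all scale by library totals, 30, 31 and 31 members fell in place of 61. In the large subunit 19, 19 and 19 fell in place of 38, with medians of -0.172, -0.162 and -0.168. In the small subunit 11, 12 and 12 fell in place of 23 and 5, 5 and 5 rose in place of 3, with medians of -0.212, -0.196 and -0.232. DESeq2 with its own size factors called the same 67 members. With no filter 54 fell and 5 rose, with mitochondrially encoded genes left out 61 fell and 6 rose, and at an adjusted p under 0.01 52 fell and 5 rose.

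Leaving out each library in turn gave 54 to 62 falls and 5 to 6 rises, with 33 to 39 falls in the large subunit and 21 to 23 in the small subunit, and 58 of the 67 calls held in all 10 fits. The largest move of a member's log2 fold change was 0.24.

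The replicate numbers showed no sign of pairing the samples, since deviations of same-numbered IRI and Sham libraries correlated at -0.25 to 0.06. So few libraries cannot exclude a pairing, and the sources used here did not state one. With a replicate block 54 members fell and 5 rose, and 59 of the 67 calls were kept.

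Over the settings named here the log2 fold change changed sign in 9 of the 77 members, of which 6 were uncalled and 3 (Mrpl32, Mrpl37 and Mrpl48) were called falls that lay between 0.001 and 0.026 under library totals, uncalled there. Under library totals 8 members changed sign. Mrpl15, Mrpl47 and Mrpl57 were uncalled under both scalings. Mrpl19 was at -0.02 under DESeq2, -0.005 with the replicate block and between -0.059 and 0.076 with a library left out (-0.059, -0.031, -0.001 and -0.006 without IRI 3, IRI 4, Sham 1 and Sham 3), beside 0.001. Mrps30 was at 0.207, 0.171 and 0.206 under library totals and both limma settings, and between -0.099 and 0.019 with a library left out (0.007 without IRI 5, 0.019 without Sham 4). Mrpl54 was at 0.075, 0.095 and 0.097 under library totals and both limma settings. The cause was not tested.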
